A study of Brassica napus with 9 samples.

Results

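The expression of 3 transcription factor genes of *Brassica napus* was followed through the abscisic acid (ABA) response of guard cells, the paired cells that open and close the stomatal pore. They were 2 genes annotated as AtMYC2, BnaC08g07580D and BnaA05g18020D, and a gene annotated as HY5, BnaA10g21200D, which together made 3 of the 101040 genes in the count table. Other MYC2 and HY5 copies were not analysed. The study had listed these 3 genes as transcription factors that passed its differential expression threshold and had listed targets that also passed. The counts of the treatment comparisons therefore chose the genes, and every treatment value of these 3 genes, at 15 min as at 60 min, is given as a description without a p-value. The identifiers place BnaC08g07580D on chromosome C08, BnaA05g18020D on A05 and BnaA10g21200D on A10 of the Darmor genome, so the AtMYC2 genes come from the C and the A subgenome.

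MYC2 is a basic helix-loop-helix factor best known in Arabidopsis as a central regulator of jasmonate responses, and it also acts in ABA and drought signalling, where it promotes dehydration-responsive genes. HY5 is a basic leucine zipper (bZIP) factor that promotes light-responsive transcription in Arabidopsis and takes part in ABA signalling. Both kinds of factor bind the G-box, a short promoter element that the G-box binding factors and the ABA-responsive element binding factors (ABFs) also recognise. ABA itself closes stomata during drought and changes transcription in guard cells within minutes.

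Guard cell protoplasts were prepared from leaves of the double haploid line DH12075, with no mutant or transgenic line among the samples. The 3 groups, each of 3 samples, were mock (ethanol solvent only), ABA for 15 min and ABA for 60 min, with ABA at a single dose and under light at room temperature. Each sample pooled several protoplast isolations, and by the study's methods the protoplasts were treated and frozen before material was pooled. The study describes 3 biological samples with all 3 treatments in each, and the replicate number is taken to mark them. Whether an isolation was divided over the treatments is not stated. The mock group has no counterpart kept for 15 or 60 min in the sources used here, so ABA and time in the incubation cannot be told apart.

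Library totals ran from 88051359 to 123968001 counts with a median of 121265229. Of the genes in the table, 52881 had enough counts to be tested, all 3 factor genes among them. All 7 guard cell marker genes, which encode the kinase OST1, the anion channel ALMT12 and the kinase MPK12, were detected in each library. Their summed level, as counts relative to the scaled library total (CPM), was 227 to 838 in mock, 243 to 1079 at 15 min and 639 to 2417 at 60 min, and replicate 3 was highest in each group. The ALMT12 and MPK12 genes made up most of this sum. The markers came from the study's list of ABA-responsive genes, so their higher level at 60 min was part of their choice. The level of BnaC03g59520D, annotated as the chlorophyll-binding protein gene CAB1 and the only mesophyll marker at hand, was 19.8 to 43.0 CPM in mock, 22.1 to 46.9 at 15 min and 34.7 to 56.9 at 60 min, with replicate 3 lowest in each group. Guard cells also have chloroplasts and express such genes. In these bulk samples, fewer cells of a type and less RNA per cell cannot be told apart.

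The AtMYC2 gene on C08 was read at every time point at a moderate level. BnaC08g07580D had 434, 463 and 421 counts in mock replicates 1, 2 and 3, 772, 554 and 637 after 15 min of ABA, and 913, 680 and 1288 after 60 min. On libraries scaled by the trimmed mean of M-values (TMM), these were 4.46, 3.996 and 3.06 CPM in mock, 5.73, 5.10 and 4.49 CPM at 15 min, and 9.16, 6.81 and 11.3 CPM at 60 min. The 3 groups followed one another without overlap, but mock replicate 1 and 15 min replicate 3 nearly met. Replicate 3 was the lowest of its group in mock and at 15 min and the highest at 60 min.

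The group means of BnaC08g07580D were 3.84 ± 0.71 CPM (SD, n = 3) in mock, 5.11 ± 0.62 at 15 min and 9.10 ± 2.26 at 60 min, and the SD at 60 min was the widest of the 3. The fit put BnaC08g07580D 0.41 (SE 0.18) above mock on the log2 scale after 15 min, that is 1.33-fold, and 1.25 (SE 0.18) above it after 60 min, that is 2.38-fold. From 15 to 60 min the fitted log2 fold change was 0.84 (SE 0.18). Within replicate numbers, the log2 ratio to the mock sample was 0.36, 0.35 and 0.55 at 15 min, and 1.03, 0.77 and 1.88 at 60 min. All ratios were above 0, and replicate 3 moved farthest at both times. Without replicate 3 the fitted value at 60 min was 0.89.

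The AtMYC2 gene on A05 moved less, and its samples differed more by replicate number than by treatment. BnaA05g18020D had 663, 1036 and 782 counts in mock, 952, 1143 and 808 at 15 min, and 912, 1335 and 764 at 60 min. These were 6.82, 8.94 and 5.69 CPM in mock, 7.06, 10.5 and 5.69 at 15 min, and 9.15, 13.4 and 6.72 at 60 min. Replicate 2 was the highest and replicate 3 the lowest of every group, and mock and 60 min overlapped, with the lowest 60 min sample below the mock samples of replicates 1 and 2.

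Group means of BnaA05g18020D were 7.15 ± 1.65 CPM (SD, n = 3), 7.76 ± 2.49 and 9.75 ± 3.37 in mock, at 15 min and at 60 min, so that neighbouring groups did not differ beyond their spread. With the replicate number in the model, the log2 fold change was 0.10 (SE 0.08) after 15 min of ABA and reached 0.42 (SE 0.08), or 1.34-fold, after 60 min. Within replicate numbers its log2 ratio was 0.05, 0.23 and 0.00 after 15 min, then 0.42, 0.58 and 0.24 after 60 min. None was below 0 on the TMM scale. On libraries scaled by their total count alone, where the median of all genes tested fell by 0.32 on the log2 scale at 60 min, the 60 min ratios of BnaA05g18020D were 0.12, 0.35 and -0.12, and the sign turned in replicate 3.

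HY5 was the least counted of the 3 genes. BnaA10g21200D had 67, 62 and 145 counts in mock, 122, 77 and 113 at 15 min, and 141, 110 and 136 at 60 min. The 95% exact Poisson interval, which covers counting error only, was 47.5 to 79.5 counts for mock replicate 2 and 122 to 171 for mock replicate 3, so the mock libraries differed beyond counting error. As CPM the values were 0.689, 0.535 and 1.05 in mock, 0.905, 0.709 and 0.796 at 15 min, and 1.41, 1.10 and 1.20 at 60 min. Mock replicate 3 stood above all 15 min samples, and the 60 min samples lay just above it, with the lowest 60 min level 1.04 times the highest mock level.

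The means of BnaA10g21200D were 0.760 ± 0.267 CPM (SD, n = 3) in mock, 0.803 ± 0.098 at 15 min and 1.24 ± 0.16 at 60 min. Mock and 15 min did not differ beyond their spread, whereas 15 min and 60 min did not overlap. Its log2 fold change against mock was 0.09 (SE 0.21) after 15 min, whereas after 60 min it was 0.71 (SE 0.21), a 1.64-fold difference. Replicate by replicate, the log2 ratio was 0.38, 0.39 and -0.40 after 15 min, then 1.02, 1.02 and 0.18 after 60 min. Replicates 1 and 2 moved alike and replicate 3, which began from the highest mock level, went down at 15 min and ended close to where it began. With total count scaling its 60 min ratio was -0.18, against 0.74 and 0.82 in replicates 1 and 2.

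**Figure D1:**
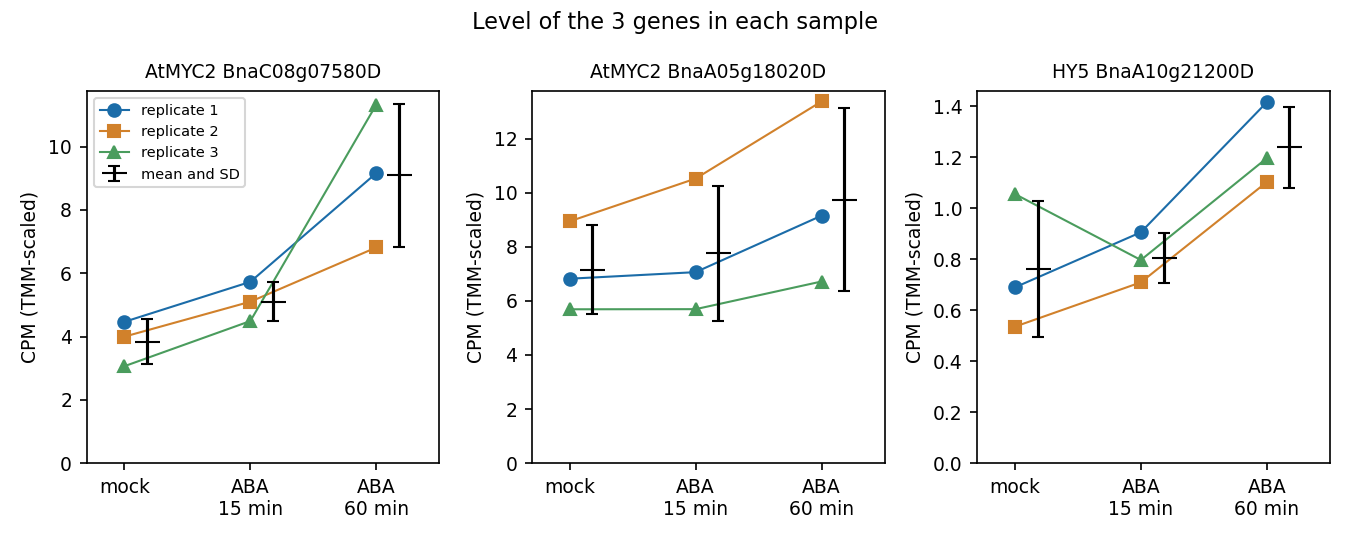
Level of the 2 AtMYC2 genes and of HY5 in CPM on TMM-scaled libraries (y axis, from 0) in mock, ABA 15 min and ABA 60 min samples (x axis). Coloured symbols joined by lines are the 3 replicate numbers and black bars are the mean and SD of each group. The lines of BnaC08g07580D cross, with replicate 3 lowest in mock (3.06 CPM) and highest at 60 min (11.3 CPM), whereas those of BnaA05g18020D keep their order and replicate 2 is highest throughout.

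In the fit across all genes, 3 of the 3 genes passed the threshold (Benjamini-Hochberg adjusted p under 0.05) as higher at 60 min than in mock, where 25.7% of all genes tested passed, 15.2% as higher and 10.6% as lower. At 15 min 0 of 3 passed in edgeR, beside 0.431% of all genes, 0.395% as higher and 0.0359% as lower, and DESeq2 also called 0 of 3. BnaC08g07580D alone was under an unadjusted p of 0.05 at 15 min, beside 5.54% of all genes. Between 15 and 60 min 3 of 3 passed as higher, beside 23.7% of all genes, 14.2% as higher and 9.45% as lower. Mock and 60 min did not overlap in 2 of 3 genes, beside 8.11% of all genes higher without overlap, and mock and 15 min did not overlap in 1 of 3, beside 1.55%. All 3 genes were higher than mock in each replicate number at 60 min, beside 26.2%, and the AtMYC2 genes were so at 15 min, beside 16.6%. These counts follow from how the genes were chosen and nothing is read from them.

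The size of the differences placed the 3 genes within the distribution of all genes tested, whose median log2 fold changes were 0.00 (15 min) and -0.03 (60 min). At 60 min, 97.1% of the genes tested had a lower log2 fold change than BnaC08g07580D, 92.4% than BnaA10g21200D and 85.6% than BnaA05g18020D. At 15 min the shares were 95.4%, 73.6% and 75.3%. By mean count over the 9 samples, 61.9% of genes lay below BnaC08g07580D, 67.4% below BnaA05g18020D and 31.5% below BnaA10g21200D.

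The 60 min value of each gene was refitted under 19 alternative settings, which use the same counts that chose the genes and so describe how the values move and nothing more. For BnaC08g07580D the log2 fold change ran from 0.89 to 1.46, and it was past the threshold in each. For BnaA05g18020D it ran from 0.12 to 0.49, and 4 of the 19 fits did not pass: those with total count scaling (0.12), without replicate 2 (0.32), without replicate 1 (0.41) and without the replicate number in the model (0.45). For BnaA10g21200D it ran from 0.41 to 1.03. The 9 fits of that gene that did not pass lay between 0.41 and 0.73, and they included the fits without replicate 1 (0.57) or 2 (0.55) and those without a single mock or 60 min library of replicate 1 or 2 (0.57 without either mock library, 0.64 and 0.62 without the 60 min library of replicate 1 and 2). The 15 min value of BnaA10g21200D turned below 0 when replicate 1, replicate 2 or either of their mock libraries was left out, from -0.05 to -0.06.

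Between the AtMYC2 genes, the share of counts shifted from A05 towards C08 as time in ABA went on, by amounts that differed widely among replicate numbers. A share sets the counts of the 2 genes against each other within a library, so it moves when either gene changes. Length and mappability are the same in each library, so shares were compared across samples only. Which gene is expressed more was not read from them. BnaC08g07580D made up 39.6%, 30.9% and 35.0% of the counts of both genes in mock replicates 1, 2 and 3. The shares became 44.8%, 32.6% and 44.1% at 15 min, then 50.03%, 33.7% and 62.8% at 60 min. The exact Clopper-Pearson 95% interval was 32.3% to 37.8% for mock replicate 3 and 60.6% to 64.9% for its 60 min sample, and 28.6% to 33.3% and 31.7% to 35.9% for the same samples of replicate 2. The intervals of replicate 3 lay apart, and those of replicate 2 overlapped.

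Mean shares were 35.1% ± 4.3 (SD, n = 3) in mock, 40.5% ± 6.8 at 15 min and 48.8% ± 14.5 at 60 min, and the groups overlapped. From mock to 60 min the share rose by 10.5 percentage points in replicate 1, 2.86 in replicate 2 and 27.8 in replicate 3. Expressed as the log2 ratio of the C08 gene minus that of the A05 gene, the difference was 0.61, 0.19 and 1.64 at 60 min, with a mean of 0.81 ± 0.75 (SD, n = 3). At 15 min it was 0.31, 0.12 and 0.55, with a mean of 0.32 ± 0.22. All 6 differences were above 0, but the mean at 60 min was 0.40 without replicate 3 and its SD was nearly as large as the mean with it. Only reads that mapped to a single gene were counted, so stretches shared by these related copies are missing from both counts, and reads of near-identical stretches are uncertain.

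**Figure D2:**
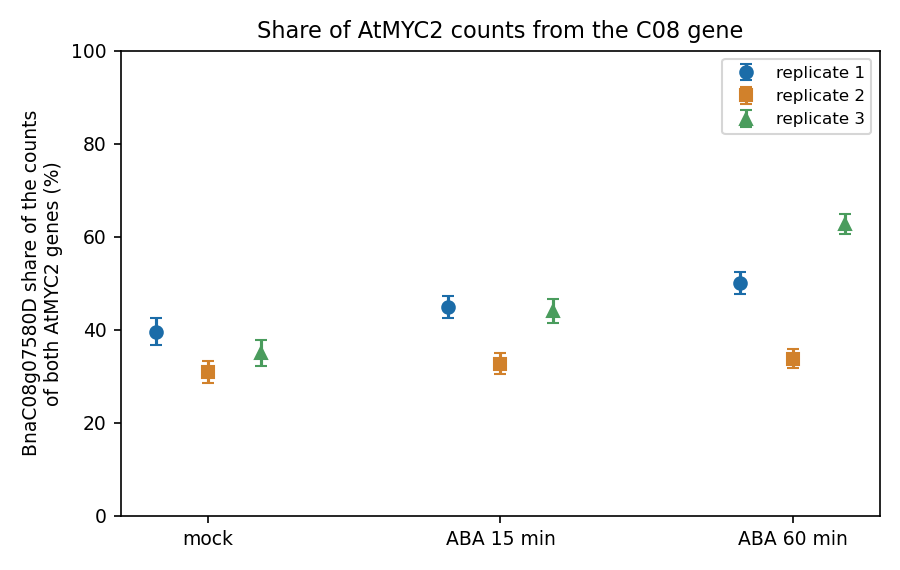
Share of the counts of both AtMYC2 genes that came from BnaC08g07580D, in percent (y axis, 0 to 100), in each sample by treatment (x axis), with exact 95% binomial intervals that cover counting error only. Replicate 2 stays between 30.9% and 33.7%, and replicate 3 goes from 35.0% in mock to 62.8% at 60 min.

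How far preparations differ at the same treatment was not itself used to choose these genes. It was tested with the edgeR quasi-likelihood F test of the replicate number. The residual spread in that test comes from the counts that chose the genes, so it is not wholly free of that choice. BnaA05g18020D differed between replicate numbers (adjusted p = 2.2e-05), and it stayed past the threshold in each alternative in which the replicate number was tested (all but the fits of 2 groups and the fit without that number), with adjusted p up to 0.0104. Its level averaged over treatments was 7.68 CPM in replicate 1, 10.9 in replicate 2 and 6.03 in replicate 3, and replicate 3 lay 0.84 below replicate 2 on the fitted log2 scale. Most genes differ between these preparations: 71.1% of genes tested passed the same test, so 1 of the 3 factor genes past the threshold is below that share. Samples with the same replicate number are taken to belong to the same biological sample. The p-values are judged against the spread left once treatment and replicate number are fitted, not against the spread between pooled samples.

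For BnaC08g07580D the replicate number did not pass in this edgeR test (adjusted p = 0.444), with levels of 6.45, 5.30 and 6.29 CPM in replicates 1, 2 and 3. The call turned on replicate 3: without it the edgeR adjusted p was 0.0300, and without its 60 min library alone it was 0.00338. For BnaA10g21200D the edgeR adjusted p was 0.172, with 1.00, 0.782 and 1.02 CPM, and it was 0.0309 with total count scaling. The replicate in which BnaA05g18020D was lowest, replicate 3, was also the one with the highest guard cell marker sum (838 against 273 and 227 CPM in mock) and the lowest CAB1 level (19.8 against 42.7 and 43.0 CPM in mock). The marker sum came mostly from ALMT12 and MPK12, and the OST1 genes differed less among mock replicates 1, 2 and 3. BnaA01g03110D was at 2.23, 2.42 and 2.62 CPM there and BnaC01g04370D at 3.06, 3.78 and 3.91. The part of these marker differences in the levels of the 3 factor genes was not tested.

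The genes the study lists as targets of AtMYC2 are ADH1, which encodes alcohol dehydrogenase, RD22, a dehydration-responsive gene used as an ABA marker in Arabidopsis, and CAB1, a chlorophyll-binding protein of the light harvesting complex. The first pair are listed as activated and CAB1 as repressed. The study chose both target lists on these samples, so their counts are not independent evidence of a direction. Of the 5 AtMYC2 target genes, 5 were called higher at 60 min, beside 15.2% of all genes tested, and 0 at 15 min, beside 0.395%, and the median log2 fold changes were 0.54 and 0.05 respectively. CAB1, listed as repressed, was among the genes that were higher. The count at 60 min fell to 2 with total count scaling, 3 without any 1 replicate number, 1 without mock replicate 3 and 0 without the replicate number in the model.

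The RD22 genes carried the largest differences of the AtMYC2 list and the widest spread. BnaC07g29150D was at 0.576, 0.319 and 1.16 CPM in mock replicates 1, 2 and 3 and at 1.46, 0.441 and 7.94 at 60 min, a log2 fold change of 1.85 (SE 0.40). BnaA06g39340D was at 3.20, 3.02 and 4.79 CPM in mock and at 5.10, 3.596 and 34.3 at 60 min, a log2 fold change of 1.43 (SE 0.43). In both genes the 60 min sample of replicate 3 stood far above all others, and in BnaC07g29150D the 60 min sample of replicate 2 lay below mock replicates 1 and 3.

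Replicate 3 was thus the replicate with the largest ratio in both RD22 genes (2.76 and 2.84) and in the AtMYC2 gene on C08 (1.88), whereas the AtMYC2 gene on A05 had its smallest ratio there (0.24). The ADH1 genes followed another order. Their within-replicate log2 ratios at 60 min were 0.06, 0.81 and 0.66 for BnaC06g37860D and 0.16, 0.88 and 0.54 for BnaA07g33310D, lowest in replicate 1 and highest in replicate 2, and the fitted values were 0.52 (SE 0.14) and 0.54 (SE 0.13). CAB1 BnaC03g59520D had ratios of 0.21, 0.40 and 0.81 and a fitted value of 0.47 (SE 0.10).

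The HY5 targets of the study number 22 genes from 8 Arabidopsis genes or families. At 60 min 21 of 22 were called higher, beside 15.2% of all genes tested, and 1 lower, beside 10.6%, with a median log2 fold change of 1.39 beside 0.71 for HY5 itself. At 15 min 3 were called, all higher, beside 0.395%, and the median was 0.16. All 3 encode RD26, a NAC family transcription factor of the ABA and dehydration response: BnaA01g16400D, BnaC07g40860D and BnaA03g48570D lay 1.55, 1.64 and 1.47 above mock on the log2 scale after 15 min, then 4.32, 3.37 and 3.46 after 60 min. HY5 was at 0.09 (SE 0.21) at 15 min, from the same mock samples. The 15 min count was 0 without replicate 1 or without the replicate number in the model. It was 2 without the mock or the 15 min library of replicate 1. It was 4 without mock replicate 2 or without the 60 min library of replicate 3, and 5 with no filter or in the fit of 2 groups. At 60 min only 8 of the 22 passed without the replicate number in the model, all higher. The lower call was absent there, and also without replicate 2 and without mock replicate 3.

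None of the other HY5 targets passed the threshold at 15 min in the main edgeR fit. The 5 genes annotated to At1g76180, which encodes the dehydrin ERD14, had log2 fold changes of 1.20 to 1.69 at 60 min: 1.20 in BnaC06g36880D, 1.53 in BnaA07g21490D, 1.38 in BnaA07g32420D, 1.69 in BnaA02g36030D and 1.28 in BnaC06g21970D. The 4 genes of At2g37180, a plasma membrane aquaporin, ran from 0.82 in BnaC04g08090D to 1.45 in BnaA05g07290D, with 1.21 in BnaC04g08100D and 1.12 in BnaA05g07300D. Aquaporins pass water through the plasma membrane, and dehydrins accumulate in drying cells. The 4 genes of At1g19000, a MYB-related factor, separated into BnaC08g18480D and BnaA08g22290D at 2.39 and 3.06, and BnaC08g36920D and BnaA09g44370D at 1.23 and 1.40. The former pair also had the largest 15 min values after RD26, at 0.83 (SE 0.23) and 0.96 (SE 0.26). Neither passed the threshold at 15 min in the main fit.

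The remaining families held 1 or 2 genes each. The F-box gene At4g33210 had log2 fold changes of 0.53 in BnaA01g03630D and 0.33 in BnaC01g04970D. BnaC05g37040D, annotated to At3g16320, a CDC27-type subunit of the anaphase-promoting complex, was the 1 gene that was lower, at -0.58 (SE 0.14). The clock gene ELF4, BnaA05g05560D, was at 0.90 (SE 0.21). The genes listed as CHI, BnaA09g34840D and BnaC08g26010D, were at 1.79 and 1.80. ELF4 and CHI are the HY5 targets listed as activated, and the direction of the others is listed as unknown.

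The replicate pattern of HY5 was not that of most of its listed targets. At 60 min replicate 3 had the largest ratio to mock in 15 of 22 target genes and the smallest in 2, whereas HY5 had its smallest there. Among all genes called higher at 60 min, replicate 3 had the largest ratio in 58.8% and the smallest in 15.1%, and over all genes tested the shares were 36.5% and 35.4%. The order of HY5 and of the A05 AtMYC2 gene, lowest in replicate 3, was thus the less frequent one among genes called higher. No test was made of these orders.

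**Figure D3:**
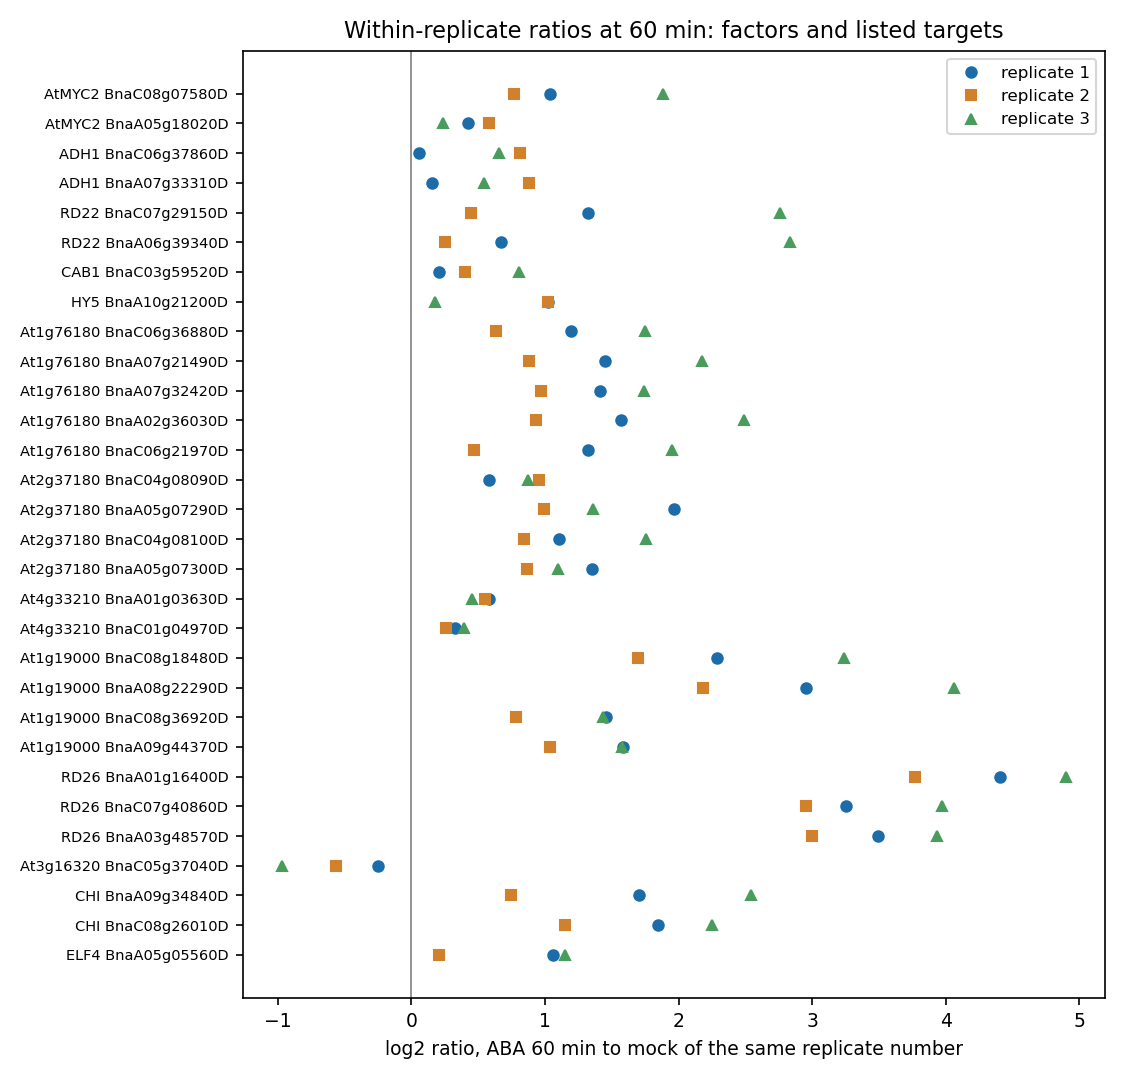
Log2 ratio of the ABA 60 min sample to the mock sample of the same replicate number (x axis, TMM-scaled, prior count 2) for the factor genes and for each gene the study lists as a target of AtMYC2 or HY5 (y axis), with 1 symbol per replicate number. Replicate 3 lies far to the right in both RD22 genes (2.76 and 2.84) and to the left in HY5 (0.18) and in BnaA05g18020D (0.24), and BnaC05g37040D is left of 0 in all replicates.

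Other factors that recognise the same element were taken from the study's table of binding site motifs. That table holds motifs enriched in promoters of genes the study called higher with ABA in these samples. The lists taken from it are therefore not an independent comparison set. The list of G-box binding factors GBF1, ATBZIP54 and GBF3 has 9 genes, of which BnaC03g25660D, with a single count over the 9 samples, could not be tested. All 8 tested genes were called higher at 60 min, beside 15.2% of all genes tested. At 15 min the main edgeR fit called 0 of 8 higher, beside 0.395%, with 3 under an unadjusted p of 0.05, beside 5.54%, and DESeq2 called 1. The edgeR count was 2 in the fit of 2 groups. It was 1 with no filter, without mock replicate 2 and without the 60 min library of replicate 3. Their median log2 fold change was 0.20 at 15 min, then 1.53 at 60 min. The 2 genes with the largest change were BnaCnng01910D at 3.27 (SE 0.22) and BnaC04g01070D at 2.87 (SE 0.21). They were at 4.91 and 18.4 CPM in mock and at 52.9 and 145 at 60 min. Both were picked by this comparison, so their values are a description without a p-value.

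The ABF list has 10 genes, 4 of ABF1 or ABF2 and 6 of ABF4, bZIP factors that act downstream of the ABA-activated kinases in Arabidopsis. At 60 min 9 of 10 were called higher, beside 15.2% of all genes tested, with a median log2 fold change of 1.59. At 15 min the main edgeR fit and DESeq2 called 0, with 1 under an unadjusted p of 0.05 in edgeR, beside 5.54%, and the median was 0.13. The edgeR count was 1 with no filter, in the fit of 2 groups and without the 60 min library of replicate 3. BnaA03g35190D did not pass, at 0.29 (SE 0.19, edgeR adjusted p = 0.305). The largest changes were those of BnaA01g26200D at 2.22 (SE 0.11) and BnaC05g33570D at 2.19 (SE 0.15), again picked by this comparison and given without a p-value.

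Without the replicate number in the model, 4 of the 8 G-box binding factor genes and 3 of the 10 ABF genes passed at 60 min. The 2 genes annotated as ATMYB2, a MYB factor that acts beside MYC2 at RD22 in Arabidopsis, had group means of 0.0429 to 0.171 CPM, and 0 of 2 passed at either time, at an unadjusted p of 0.05 as well as adjusted. In edgeR their log2 fold changes at 60 min were 0.59 (SE 0.65) in BnaA05g00710D and -0.01 (SE 0.42) in BnaC04g51450D, and at these counts a difference of the size of that in BnaA05g18020D was not detectable.

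Replicate 3 had the largest 60 min ratio in 8 of 8 G-box binding factor genes and in 8 of 10 ABF genes. The share was 58.8% among all genes called higher at 60 min. BnaC08g07580D also had its largest ratio there, unlike BnaA05g18020D and BnaA10g21200D. At 60 min the G-box binding factor genes fell into a lower set, 0.67 to 0.79, and an upper set, 2.27 to 3.27, with their list median in the gap. Set beside them, the AtMYC2 gene on C08 (1.25) lay in the gap too, and HY5 (0.71) lay within the lower set. The AtMYC2 gene on A05 (0.42) was lower than all 8. The differences between these genes were not tested.

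**Figure D4:**
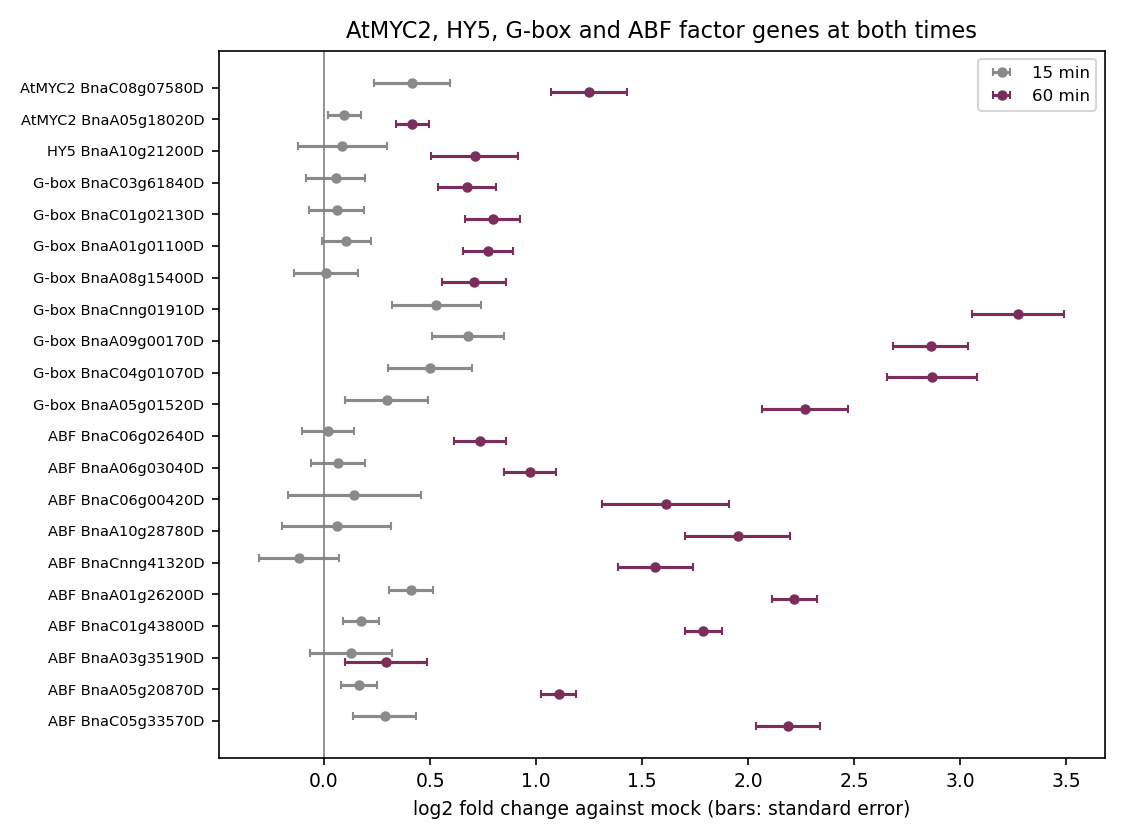
Fitted log2 fold change against mock (x axis) at 15 min (grey) and 60 min (purple) for the AtMYC2, HY5, G-box binding factor and ABF genes (y axis), with bars for the standard error of the fit over the 9 samples. At 15 min the highest value is 0.68 (BnaA09g00170D), and at 60 min they run from 0.29 (BnaA03g35190D) to 3.27 (BnaCnng01910D), with BnaA05g18020D at 0.42.

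The 3 factor genes were compared with each other and with all other genes over the 9 samples on log2 CPM centred by replicate number, which leaves the movement between treatments. Pearson's r was 0.94 between BnaA05g18020D and HY5, 0.77 between the AtMYC2 genes and 0.67 between BnaC08g07580D and HY5. Without centring the values were 0.03, 0.31 and 0.64, so the likeness of BnaA05g18020D and HY5 held only once the differences between preparations were taken out. All 3 genes were chosen on the treatment difference that these 9 points share, and the values are a description.

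Among the other genes whose counts averaged 50 or more, those most like BnaC08g07580D were BnaC02g00150D, BnaC09g28300D and BnaC08g40010D, with r of 0.997, 0.997 and 0.996. BnaA05g18020D was most like BnaCnng02470D, BnaA07g38140D and BnaA06g39230D, with r of 0.997, 0.996 and 0.994. HY5 was most like BnaC03g35100D, BnaA03g29990D and BnaC07g46470D, with r of 0.991, 0.990 and 0.984. Such values were common: of 41629 genes, 4508 had r over 0.9 with BnaC08g07580D, 1838 with BnaA05g18020D and 407 with HY5. The names were not unique: without centring none remained for any of the 3 genes. With Spearman's rho 0, 1 and 1 of each 3 remained. The named genes still had rho of 0.95 to 1, and genes tied at a rho of 1 have no order among them.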

How the data were processed

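RNA-seq was made from 9 *Brassica napus* guard cell protoplast samples. Reads were mapped by the authors with TopHat2 against the genome of the line Darmor, and HTSeq counted those that mapped to 1 gene. The deposited values are raw counts per gene, with no normalization. The tool versions, the annotation release and the strand setting are not given in the sources used here. With unstranded counting, genes that overlap on opposite strands would lose the reads that fit more than 1 gene.

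From these counts, edgeR 4.0.16 (R 4.3.3) fitted treatment and replicate number over all 9 samples with TMM factors (0.812 to 1.20), the filterByExpr filter and quasi-likelihood F tests, with Benjamini-Hochberg adjustment over 52881 genes at 0.05. Each SE is the fold change (log2) over the root of its F statistic. CPM used TMM-scaled libraries, and within-replicate log2 ratios a prior count of 2. The study's methods also model the replicate number. Same-numbered samples are taken to belong to the same biological sample of the study. Their deviations from group means correlated at 0.715 to 0.851 (9 pairs), against -0.588 to -0.156 for different numbers. The negative range is no separate baseline, since the deviations within a group cancel out. No 2 libraries of a group agreed within sampling noise. The scripts were tested on simulated data.

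Alternatives were DESeq2 1.42.0, RLE or total count scaling, no filter or a mean of at least 50 counts, no replicate number, fits of 2 groups, and leaving out each replicate number or library. The members and lists were chosen with earlier results of these data known. Named genes were the 3 members, the listed targets, the 2 called genes of each other list with the largest change at 60 min in the same direction in all 3 replicates, and the 3 genes most like each member. BnaC03g25660D, BnaA03g35190D and the ATMYB2 genes were named after their values were seen. Other MYC2 and HY5 copies, jasmonate, light and flavonoid gene lists, promoters and protein sequences were not analysed here, since no gene names or sequences for these identifiers were at hand.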

Additional observations from a re-analysis of the deposited data

How the results depend on the processing

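The replicate number decided how many genes passed. Over all genes, edgeR called 13616 at 60 min, 228 at 15 min and 12516 between 15 and 60 min. Without a replicate block the counts were 895 (93.5% higher, against 59.0% with it), 5 and 243 (97.1% higher, against 60.1%). The block also changed the call of BnaA05g18020D (0.45 without it) and BnaA10g21200D (0.70) at 60 min, and of all 3 factor genes between 15 and 60 min. Total count scaling gave 27370 at 60 min (15.2% higher) and 22807 between the times (16.4% higher), with the median of all genes at -0.32 and -0.27. At 15 min DESeq2 called 490, no filter 584 and a fit of 2 groups 898.

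Leaving out a replicate number or a library gave 5818 to 13196 genes at 60 min, 5 to 537 at 15 min, 3637 to 12088 between the times and 24074 to 38321 (37594 with all) for the replicate number. The lowest counts at 15 and 60 min and between them came without replicate 1. The 60 min log2 fold change of BnaA10g21200D also lost its call in the fit of 2 groups (0.73). Its 15 min value was -0.0496 without replicate 1, -0.0563 without replicate 2, -0.0582 without mock replicate 1 and -0.0515 without mock replicate 2. BnaC08g07580D passed at 15 min in the fit of 2 groups (0.42) and without the 60 min library of replicate 3 (0.41). Between 15 and 60 min BnaC08g07580D lost its call in 2 of 19 settings, BnaA05g18020D in 8 and BnaA10g21200D in 10, with no change of direction. BnaA10g21200D had at most 145 counts in a library. The promoter motif alternative was not run.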
